A study of Mus musculus with 6 samples.

Results

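Cytochrome P450 genes other than Cyp1a1 and Cyp1b1, both direct targets of the aryl hydrocarbon receptor, were examined in cultured mouse synovial fibroblasts, the mesenchymal cells of the joint lining and sublining. A gene was taken when its symbol was Cyp followed by a family number, a subfamily letter and a gene number, which gave 83 of the 21033 genes in the count table. Of these 83 genes, 32 had at least 1 read in any library and 51 had none. The cells were primary cells of hTNFtg mice, animals with a human TNF transgene that develop arthritis, taken from the ankle joint and used after 3 passages, so the DMSO cells carried the transgene too. In one group 3 libraries came from cells given 10 µM compound 33, and in the other 3 libraries came from cells given DMSO, the vehicle, with RNA taken after 48 h. The series title ties the compound to Hyou1, an endoplasmic reticulum chaperone. The labels used here give no age or sex of the mice and do not say whether replicates are separate animals or cultures. The p-values thus rest on the spread among these libraries, which could be technical.

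Cytochrome P450 enzymes are heme proteins that insert an oxygen atom into their substrate, using electrons passed on by P450 oxidoreductase (Por) in the endoplasmic reticulum or by ferredoxin in mitochondria. Families numbered low act mostly on drugs, pollutants and fatty acids, and many of their genes are known from liver. Families numbered high have narrow physiological substrates such as retinoic acid, vitamin D, oxysterols and steroid hormones, and several of these act in connective tissue.

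The libraries held 1594052 to 2384850 reads with compound 33 and 1913730 to 2897207 with DMSO. Each read marks the 3′ end of a transcript, so no correction for length was made, and a level is a count per 1000000 reads of the scaled library (CPM). The summed level of 9 fibroblast markers was 10869 to 12875 CPM with compound 33 and 12073 to 13585 CPM with DMSO, all 9 having reads. The markers differed among themselves. Thy1 stood at 486 ± 52.0 CPM with compound 33 and 765 ± 166 CPM with DMSO (SD, n = 3 each). Pdgfrb stood at 274 ± 26.3 CPM with compound 33 and 178 ± 47.7 CPM with DMSO (SD, n = 3 each). Both had groups without overlap, as did 13.4% of all genes tested, and the other fibroblast markers overlapped. Neither gene passed after adjustment (edgeR adjusted p = 0.605 for Thy1 and 0.671 for Pdgfrb). Hepatocyte markers, which would mark the main P450-rich cell type, summed to 0 CPM in every compound 33 library and to at most 1.06 CPM with DMSO, with Apoa1, Ttr and Ahsg at 0 reads throughout. Macrophage markers (5 of 5 with reads) summed to 37.7 to 79.3 CPM with compound 33 and 41.0 to 114 CPM with DMSO, mostly from Lyz2. Over the 6 libraries Lyz2 had 755 reads, Cd68 35, Csf1r 29, Ptprc 6 and Adgre1 4. The part of macrophages in the results was not tested. Fewer cells of a type and less RNA per cell cannot be told apart in such bulk samples.

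Most P450 genes had no read at this depth. Reads were found for 38.6% of the P450 genes, against 70.6% of all genes in the table. For a gene without a read, 0 of 13042310 reads allows up to 0.230 reads per 1000000, taking 3 reads over all libraries as the limit, for counting error only. Sequence shared with other genes was examined only for P450 genes with 10 or more reads. The limit therefore does not cover reads that fit several genes. Among the P450 genes with reads, 18 had 10 or more in total and 8 had a single read. Many of the genes lie in clusters. Of the drug-metabolising subfamilies, Cyp2c had 15 reads over 15 genes, 11 of them from Cyp2c23. Cyp3a had 7 reads over 7 genes, and Cyp2b had 0 reads over 5 genes. Cyp2d had 36 reads over 7 genes, all of them from Cyp2d22. The fatty acid subfamily Cyp4a had 0 reads over 3 genes.

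**Figure D1:**
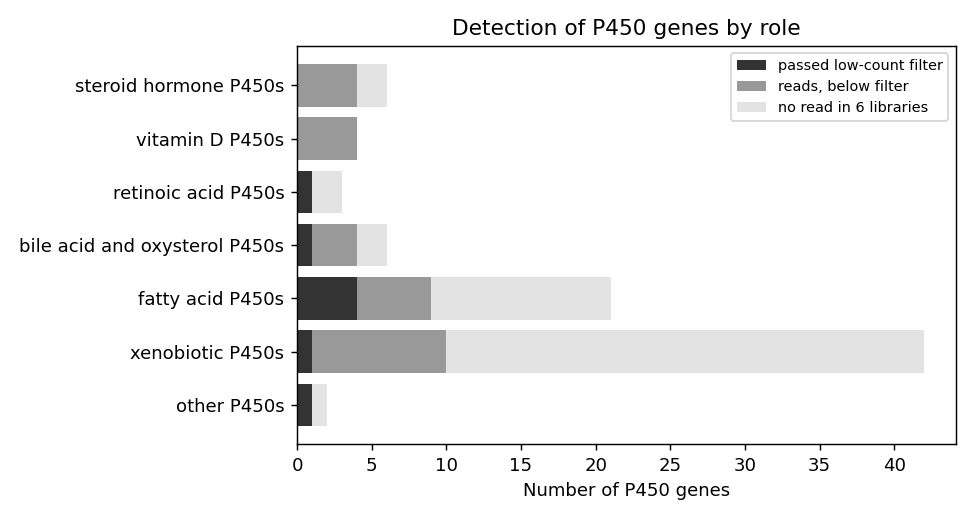
Number of P450 genes (x axis) in each role list, split into genes that passed the low-count filter, genes with reads below it and genes without a read in the 6 libraries. Of 42 xenobiotic genes 32 had no read, and Cyp27a1 stands under both vitamin D and bile acids.

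By role, reads were found for 1 of 3 retinoic acid genes, 4 of 4 vitamin D genes, 4 of 6 bile acid and oxysterol genes, 9 of 21 fatty acid genes, 10 of 42 xenobiotic genes and 4 of 6 steroid hormone genes. The steroid hormone genes had 6 reads between them, 3 of which belonged to Cyp19a1, the aromatase, in DMSO replicate 1. Cyp17a1 and Cyp11b2, needed for androgen and aldosterone synthesis, had no read.

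The low-count filter, which asks for about 10 reads in each of at least 3 libraries, passed 8 P450 genes, which held 93.1% of all P450 reads. They were Cyp26b1, Cyp20a1, Cyp7b1, Cyp2j6, Cyp2u1, Cyp4v3, Cyp4f16 and Cyp2f2. A gene that is high in only one group can pass through that group alone, so these 8 do not stand for the whole family. Summed over all 83 genes, the P450 level was 355, 366 and 420 CPM with compound 33 and 268, 325 and 324 CPM with DMSO. This sum was 380 ± 34.8 CPM with compound 33 and 306 ± 32.5 CPM with DMSO (mean ± SD, n = 3 each), and every compound 33 library lay above every DMSO library. Cyp26b1 alone had 698 of 2279 P450 reads with compound 33 and 477 of 2158 with DMSO. The difference in the sum lay mostly in this gene, at a mean of 119 CPM with compound 33 and 68.7 CPM with DMSO. Cyp2u1 added to it, at 35.7 and 18.4 CPM in the same order. Cyp2f2 went the other way, at 5.14 and 14.6 CPM. The sum was not tested and does not describe the family as a whole.

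Short promoter sequences were searched for the core element of the aryl hydrocarbon receptor close to the start of these genes. RefSeq promoters on GRCm38.p6, from 250 bases before to 50 after a gene's start, were matched for 64 of the 83 genes and for 6 of the 8 that passed the filter. The xenobiotic response element core TNGCGTG, on either strand, was found in 1 of the 64 (1.56%), Cyp2c68, a gene without reads. Its share was 7.21% of the 15915 genes of the table with such a sequence. It was found in 0 of the 6, against 9.76% of the 7985 genes that passed the filter and have such a sequence. The antioxidant response element core TGACNNNGC was found in 9.38% of the 64 and in 15.3% of the 15915. The nuclear receptor half-site AGGTCA was found in 31.2% of the 64 and in 16.6% of the 15915, and P450 genes of a subfamily share sequence. It was found in 5 of 23 such genes with reads (21.7%). Among the 6 it was found in 1 (16.7%), against 14.3% of the 7985. None of these 3 motifs contains another. Of the 8 genes that passed the filter, Cyp2j6 and Cyp2f2 hold a match, shown here 5′ to 3′ on the strand of the gene with the motif in capitals (for Cyp2j6 the motif reads on the opposite strand). A match describes the letters and is not evidence of binding. Cyp1a1 and Cyp1b1, the receptor targets set aside, were asked for in the same search, and no match was listed for either. Whether the promoter set holds a sequence for these genes was not recorded. A missing match in this short window cannot show that a gene lacks the element.
Cyp2j6, chr4:96553617-96553646, minus strand, antioxidant core: actctcagaaGCTTTGTCActtcctgcgag
Cyp2f2, chr7:27119722-27119751, plus strand, half-site: aaaagggatttaAGGTCAgccttcaagcca

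The comparison of compound 33 with DMSO asks whether P450 genes outside the receptor's direct targets differ in cells where the receptor's repressor Ahrr rose. Of the 8 P450 genes tested, 0 passed edgeR's quasi-likelihood test after adjustment over the 10124 genes tested, where 3 genes (0.0296%) passed. The other 75 P450 genes were not tested in that fit. At an unadjusted edgeR p under 0.05, 3 of the 8 P450 genes stood against 6.87% of all genes tested. After adjustment, DESeq2 and limma-voom also passed 0 of the 8. Of the 8, 4 had groups that did not overlap, where 13.4% of all genes tested did. The log2 fold change was positive for 7 of 8, against 48.9% of all genes tested. Their median log2 fold change was 0.22, against -0.01 over all genes tested. Leaving out DMSO replicate 3 gave a median over the 8 of 0.55, and leaving out DMSO replicate 1 gave 0.07.

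**Figure D2:**
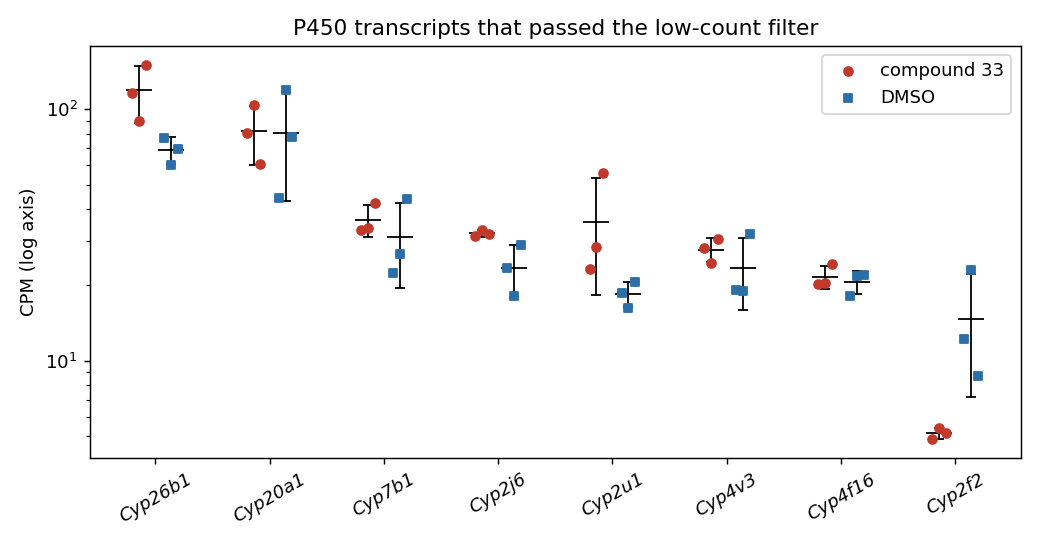
Level in CPM (log axis) of the 8 P450 genes that passed the low-count filter, with 1 point per library and bars for mean ± SD over 3 libraries, compound 33 left and DMSO right. The groups do not overlap for Cyp26b1, Cyp2j6, Cyp2u1 and Cyp2f2.

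Cyp26b1, which hydroxylates retinoic acid and so ends its signal, had the most reads with compound 33, while Cyp20a1 had the most with DMSO (570, against 477 for Cyp26b1). Its level was 116, 89.5 and 150.3 CPM with compound 33, against 76.9, 60.0 and 69.3 CPM with DMSO. All compound 33 libraries were above all DMSO libraries, with replicate 3 the highest. The log2 fold change was 0.79 (SE 0.24, 95% interval 0.27 to 1.30, edgeR unadjusted p = 0.0057, adjusted p = 0.505). The other 2 retinoic acid hydroxylases, Cyp26a1 and Cyp26c1, had no read. Cyp26b1 lies on mm10 chromosome 6 (84571414 to 84593908, minus strand), and its exons overlap no other annotated gene.

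The tested enzymes that make retinoic acid did not pass either, and their estimates differed among themselves. Aldh1a1 and Aldh1a3 did not reach the filter and were not tested. Their mean levels were 5.61 and 4.29 CPM with compound 33, against 3.67 and 4.02 CPM with DMSO. Aldh1a2, a dehydrogenase that forms retinoic acid, stood at 120, 75.0 and 77.2 CPM with compound 33, against 169, 210 and 119 CPM with DMSO. The groups overlap by 1 library each, and the log2 fold change was -0.87 (SE 0.26, edgeR adjusted p = 0.505). Rdh10, the dehydrogenase of the preceding step, stood at 29.3, 31.1 and 26.3 CPM with compound 33, against 40.8, 56.8 and 38.3 CPM with DMSO. Its groups did not overlap, at a log2 fold change of -0.65 (SE 0.25, edgeR adjusted p = 0.674). Rdh11, another retinol dehydrogenase, stood at 91.9 ± 10.4 CPM with compound 33 and 94.8 ± 4.27 CPM with DMSO (SD, n = 3 each). Of 12 tested genes of retinoid handling 4 had a positive and 8 a negative log2 fold change, 0 passed, and the median was -0.14. The binding protein Crabp1 and its relative Crabp2 had the most reads of that list over all 6 libraries, at 313 ± 173 and 112 ± 32.3 CPM with compound 33, against 504 ± 410 and 156 ± 42.9 CPM with DMSO (SD, n = 3 each). Neither passed.

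Among fatty acid P450 genes, Cyp2u1, a hydroxylase of long-chain fatty acids, had the largest positive estimate. It stood at 23.2, 28.2 and 55.6 CPM with compound 33, against 18.6, 16.2 and 20.5 CPM with DMSO. The groups did not overlap, and compound 33 replicate 3 was well above the other libraries. The log2 fold change was 0.95 (SE 0.33, 95% interval 0.24 to 1.66, edgeR unadjusted p = 0.0122, adjusted p = 0.599), and 0.49 without compound 33 replicate 3. The gene is on chromosome 3 (131288441 to 131303227, minus strand), and its exons overlap those of 4930534D22Rik on the opposite strand. Whether the counting used strand is not stated in these sources, so reads inside such an overlap cannot be told apart. The overlap does not reach the end of the gene that these libraries read. Of 902 stretches of 50 bases in the last 500 bases of its transcripts, 0 occur in another gene on either strand.

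Cyp2j6, of a subfamily known for epoxidising arachidonic acid, stood at 31.2, 33.2 and 31.9 CPM with compound 33, against 23.3, 18.0 and 28.9 CPM with DMSO. The compound 33 libraries were close together and above all DMSO libraries, with a log2 fold change of 0.45 (95% interval -0.10 to 1.00, edgeR adjusted p = 0.799). Its neighbour Cyp2j9 had 12 reads with compound 33 and 14 with DMSO. Cyp4v3, the mouse counterpart of the human fatty acid hydroxylase gene CYP4V2, stood at 27.7 ± 2.98 CPM with compound 33 and 23.4 ± 7.51 CPM with DMSO (SD, n = 3 each). Cyp4f16, of a subfamily that hydroxylates fatty acids and leukotrienes, stood at 21.6 ± 2.28 CPM with compound 33 and 20.5 ± 2.18 CPM with DMSO (SD, n = 3 each). Both had overlapping groups, with 95% intervals of the log2 fold change of -0.38 to 0.83 for Cyp4v3 and -0.49 to 0.62 for Cyp4f16. Cyp4f13 had 7, 10 and 13 reads with compound 33 and 8, 4 and 12 with DMSO. The soluble epoxide hydrolase gene Ephx2, whose product acts on fatty acid epoxides, stood at 7.81 ± 1.53 CPM with compound 33 and 6.42 ± 1.65 CPM with DMSO (SD, n = 3 each), and Ephx1 at 231 ± 43.1 and 210.4 ± 78.8 CPM in the same order.

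**Figure D3:**
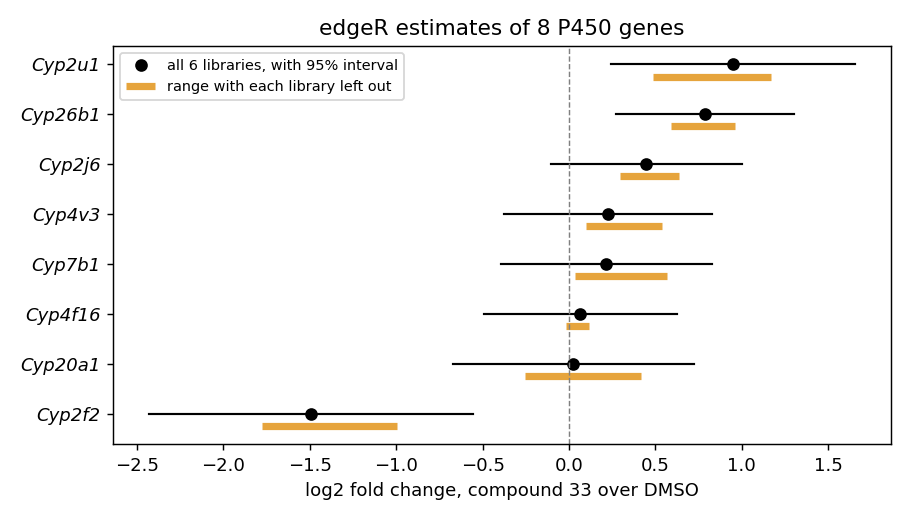
edgeR log2 fold change of compound 33 over DMSO for the 8 P450 genes (points) with 95% intervals (black lines) and the range of estimates with each library left out in turn (orange). Only Cyp2u1, Cyp26b1 and Cyp2f2 have intervals that leave out 0, before adjustment, and the range of Cyp2f2 runs from -1.78 to -0.99.

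Cyp2f2, a xenobiotic enzyme best known from airway club cells, was the gene among the 8 with a negative estimate. It stood at 4.89, 5.39 and 5.15 CPM with compound 33, against 12.2, 23.0 and 8.70 CPM with DMSO. The compound 33 libraries were close together and below all DMSO libraries, and DMSO replicate 2 was the highest. The log2 fold change was -1.49 (SE 0.43, 95% interval -2.43 to -0.56, edgeR unadjusted p = 0.00435, adjusted p = 0.495), and -0.99 without DMSO replicate 2. The authors' deposited table holds -1.50 for it (log2 scale, SE 0.54, adjusted p = 0.481). Cyp2f2 lies on chromosome 7 (27119909 to 27133660, plus strand), and its exons overlap those of Gm15883 on the opposite strand. Of the 50-base stretches in the last 500 bases of its transcripts 7.54% also occur in that gene, on one strand or the other, so its counts are uncertain.

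The other xenobiotic genes had few reads. Cyp2d22 had 2, 8 and 6 reads with compound 33 and 14, 1 and 5 with DMSO, and 15.0% of the same stretches occur in other Cyp2d genes. Cyp2c23 had 3 reads with compound 33 and 8 with DMSO. Cyp1a2, the remaining family 1 gene and itself a known receptor target in liver, had 0 reads with compound 33 and 1 with DMSO. Of the 2 receptor targets set aside, Cyp1b1 stood at 331 ± 25.3 CPM with compound 33 and 146 ± 47.5 CPM with DMSO (SD, n = 3 each), a log2 fold change of 1.18 that did not pass edgeR (adjusted p = 0.266). In the authors' deposited table the adjusted p of Cyp1b1 is 0.0054. Cyp1a1 had 5 reads in compound 33 replicate 2 and no read in the other libraries.

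**Figure D4:**
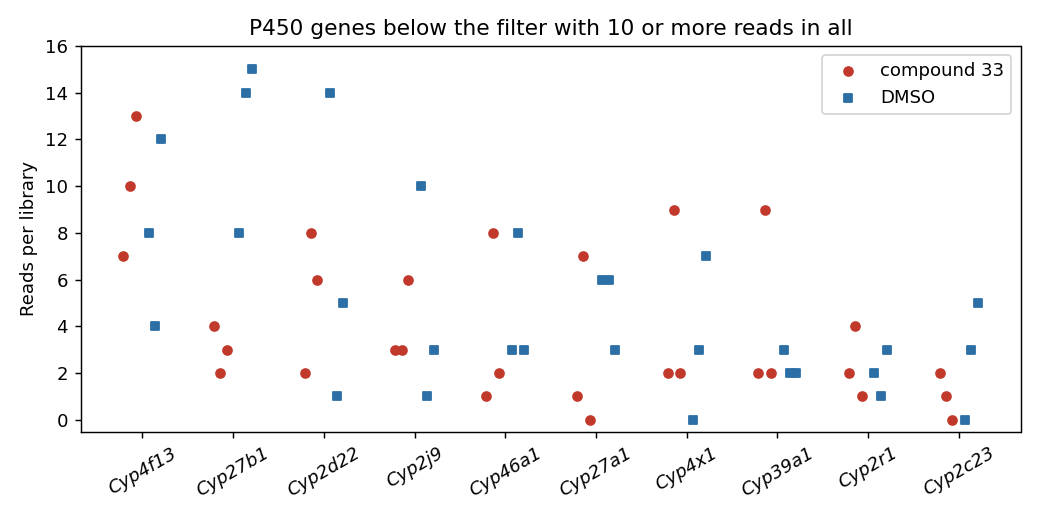
Reads per library (y axis) for the 10 P450 genes below the low-count filter with 10 or more reads in all, compound 33 left and DMSO right, 1 point per library. Cyp27b1 has 2 to 4 reads with compound 33 and 8 to 15 with DMSO, and the other 9 genes overlap.

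Vitamin D genes were all detected below the filter. Cyp27b1, the mitochondrial 1α-hydroxylase that makes the active hormone, had 4, 2 and 3 reads with compound 33, against 8, 14 and 15 with DMSO. These are 2.45, 0.829 and 1.54 CPM with compound 33, against 4.24, 6.32 and 5.22 CPM with DMSO, and the groups did not overlap. Fitted without the filter, its log2 fold change was -1.78 (SE 0.68, 95% interval -3.14 to -0.43, edgeR unadjusted p = 0.0107, adjusted p = 0.517). An exact two-sided permutation test of its CPM gave p = 0.1, the smallest that 3 against 3 libraries allow. Any gene whose groups do not overlap gives this value, so the test adds nothing to the lack of overlap. Across the 32 genes with reads, that fit placed 4 under an unadjusted 0.05, namely Cyp26b1, Cyp2u1, Cyp2f2 and Cyp27b1, where 6.24% of all genes with reads lay there, and 0 passed after adjustment, where 0.141% of all genes did. Groups did not overlap for 5 of the 32, against 11.3% of all genes with reads.

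The 25-hydroxylase gene Cyp2r1 had 7 reads with compound 33 and 6 with DMSO. Cyp27a1, which hydroxylates both vitamin D and sterols, had 8 reads with compound 33 and 15 with DMSO. Cyp24a1, which inactivates the hormone and is a classical target of its receptor, had 0 reads with compound 33 and 1 with DMSO. The receptor gene Vdr passed the filter and stood at 3.06, 5.39 and 2.57 CPM with compound 33, against 6.36, 24.4 and 5.57 CPM with DMSO. The groups did not overlap, and DMSO replicate 2 was far above the other libraries. Its log2 fold change was -1.67 (SE 0.61, edgeR adjusted p = 0.649), and -0.65 without DMSO replicate 2.

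For sterols, Cyp7b1, the oxysterol 7α-hydroxylase, stood at 33.0, 33.6 and 42.2 CPM with compound 33, against 22.3, 26.6 and 43.9 CPM with DMSO. The groups overlapped through DMSO replicate 3, with a log2 fold change of 0.22 (95% interval -0.39 to 0.83, edgeR adjusted p = 0.936). Ch25h, which makes the 25-hydroxycholesterol that Cyp7b1 acts on, stood at 224 ± 49.7 CPM with compound 33 and 225 ± 53.0 CPM with DMSO (SD, n = 3 each), a log2 fold change of -0.01 (edgeR adjusted p = 0.996). Cyp39a1, which acts on 24-hydroxycholesterol, had 13 reads with compound 33 and 7 with DMSO, and Cyp46a1, which makes that sterol in brain, had 11 and 14 in the same order. The liver genes Cyp7a1 and Cyp8b1, of bile acid synthesis, had no read. Cyp51, the lanosterol demethylase, whose symbol has no subfamily letter, stood at 736 ± 263 CPM with compound 33 and 763 ± 290.2 CPM with DMSO (SD, n = 3 each).

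Cyp20a1, a P450 whose substrate is not known, stood at 80.7, 104 and 60.7 CPM with compound 33, against 44.5, 119 and 77.6 CPM with DMSO. The groups overlapped fully, and the log2 fold change was 0.02 (95% interval -0.67 to 0.72, edgeR adjusted p = 0.992). Its sign turned when compound 33 replicate 2, DMSO replicate 1 or DMSO replicate 3 was left out.

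Genes that serve P450 enzymes did not pass. Of 9 tested electron donors and P450-binding proteins, 6 had a positive and 3 a negative estimate, the median log2 fold change was 0.16 and 0 passed. Por stood at 86.2, 82.1 and 74.6 CPM with compound 33, against 64.2, 55.0 and 71.7 CPM with DMSO, groups that did not overlap (log2 fold change 0.35, SE 0.21, edgeR adjusted p = 0.818). The reductase gene Cyb5r1 stood at 471, 592 and 1498 CPM with compound 33, against 584, 296 and 477 CPM with DMSO. Compound 33 replicate 3 was far above all others, and the log2 fold change was 0.92 (SE 0.39, edgeR adjusted p = 0.714). The donor Cyb5b, with the most reads of that list over all 6 libraries, though fewer than Cyb5r1 with compound 33, stood at 677 ± 63.5 CPM with compound 33 and 709 ± 61.8 CPM with DMSO (SD, n = 3 each).

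**Figure D5:**
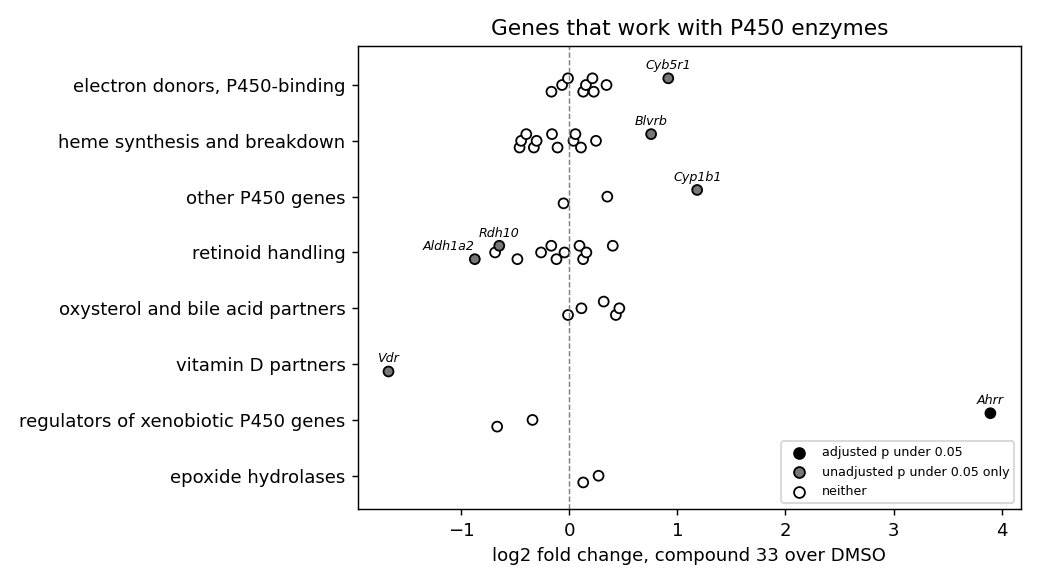
edgeR log2 fold change of compound 33 over DMSO (x axis) for tested genes of 8 lists around the P450 enzymes, 1 point per gene. Ahrr is the gene past the adjusted threshold, and the 6 grey genes lie under an unadjusted p of 0.05 alone.

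Of 12 tested genes of heme synthesis and breakdown, 5 had a positive and 7 a negative estimate, the median log2 fold change was -0.13 and 0 passed. Blvrb, a biliverdin reductase, stood at 35.5, 28.2 and 31.4 CPM with compound 33, against 22.3, 16.2 and 17.8 CPM with DMSO. Its groups did not overlap (log2 fold change 0.76, SE 0.26, edgeR adjusted p = 0.583). Alas1, the rate-limiting enzyme of heme synthesis, stood at 29.8 ± 8.48 CPM with compound 33 and 40.8 ± 10.3 CPM with DMSO, and Hmox1, heme oxygenase, at 426 ± 49.1 and 476 ± 286 CPM in the same order (SD, n = 3 each). Among 5 tested oxysterol and bile acid partners 0 passed, with a median of 0.32. The 2 tested epoxide hydrolases did not pass. Among regulators of xenobiotic P450 genes, 3 were tested and 1 passed upward, Ahrr, at 35.4 ± 4.40 CPM with compound 33 and 2.21 ± 1.65 CPM with DMSO (SD, n = 3 each, edgeR log2 fold change 3.90, adjusted p = 0.00412). The pregnane receptor gene Nr1i2 and its relative Nr1i3 did not reach the filter.

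For Cyp26b1 the authors' deposited table holds a log2 value of 0.79 for compound 33 over DMSO (SE 0.27, adjusted p = 0.39). For Cyp2u1 the authors' deposited table holds 0.95 on the same scale (SE 0.38, adjusted p = 0.647). For Cyp27b1 it is -1.76 (SE 0.82) in the authors' deposited table, where it was given no adjusted p. Of the genes with an adjusted p in the authors' deposited table, 0.179% lay under 0.05. Of the 32 P450 genes with reads, only the 8 past the filter were given one there, and none of these 8 lay under 0.05.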

How the data were processed

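Per the submitters' processing notes, reads were checked with FastQC 0.11.9, aligned with HISAT2 2.2.1 to mm10, counted with featureCounts 2.0.3 and compared with DESeq2. The libraries were made with a 3′ mRNA kit and read on an Ion Proton instrument, per the labels' protocols. The annotation and strand setting are not stated in these sources. The authors deposited whole-number read counts per gene symbol, without normalization. They also deposited a comparison table with a mean normalized signal, a log2 fold change with its standard error, a Wald score and p-values.

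The analysis used edgeR 4.0.16 and limma 3.58.1 under R 4.3.3. Genes passed filterByExpr (minimum count 10), libraries were scaled by TMM, and the quasi-likelihood F test with robust estimation compared the groups over all 6 libraries, with no other covariate. It was two-sided, with Benjamini-Hochberg adjustment over 10124 genes and a threshold of 0.05. A standard error is the size of the unshrunk estimate over the root of F. The procedure was tested on simulated data. Genes and lists were chosen with earlier results of these data known. All genes past the filter were named, then those with 10 or more reads, then the most read or lowest-p genes of each partner list; some were left out for length, and further genes were named after their values were seen. Alternatives were other scalings and filters, DESeq2 1.42.0, limma-voom, no robust estimation, a replicate block and each library left out. Within groups, libraries differed by more than counting noise (chi-square per degree of freedom 4.34 to 17.6). Gene positions are from GENCODE M21 on mm10, which placed all 83 genes.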

Additional observations from a re-analysis of the deposited data

How the results depend on the processing

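None of the 8 P450 genes past the filter passed under any of the 14 alternatives, where Cyp2f2 was not tested under the stricter filter. The 32 with reads were all tested without the filter, where 0 passed, and the 51 without reads were not tested. The number of genes passing overall was 3 in edgeR, 21 without the low-count filter, 18 in DESeq2 and 7 with the replicate block, and ran from 1 to 7 with each library left out. The estimates of Cyp26b1, Cyp2u1, Cyp2j6, Cyp7b1, Cyp4v3 and Cyp2f2 kept their sign throughout. That of Cyp20a1 was -0.18 without compound 33 replicate 2, -0.26 without DMSO replicate 1 and -0.00066 without DMSO replicate 3, and that of Cyp4f16 was -0.019 without compound 33 replicate 3 and -0.015 without DMSO replicate 1; over all libraries left out they reached 0.42 and 0.12. The median of the 8 P450 genes ran from 0.068 to 0.55 over the libraries left out, and it was 0.27 with the replicate block. Medians of partner lists ran, with each library left out, from -0.62 to 0.14 for regulators of xenobiotic genes, from -0.41 to 0.00161 for retinoid handling, from -0.28 to 0.075 for heme genes and from -2.10 to -0.65 for vitamin D partners, where Vdr is the one gene tested. The heme median was also above 0 with the replicate block (0.0055) and in limma-voom (0.0021). With the stricter filter the regulators' median was 1.78, because fewer genes were tested. Of the P450 genes outside the 83, 1 passed without the filter and 1 in DESeq2, Cyp1b1 in both. Requiring 10 reads left 18 detected P450 genes in place of 32. For libraries with the same number, the correlation of their deviations from the group means ran from -0.03 to 0.21 over 3 pairs. Between groups, libraries of unlike number ran from -0.23 to 0.15. With 3 libraries per group this check cannot decide whether libraries were paired, and the main fit did not pair them. The cause of the larger count with the replicate block was not tested. Depth limits what can be seen: 1 read was worth 0.348 to 0.611 CPM, so genes with under 10 reads carry no usable fold change.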
